A study of Homo sapiens with 8 samples.

Results

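A set of 10 genes that are known to be induced in low oxygen but do not encode glycolytic enzymes or glucose carriers were followed in nickel-treated BEAS-2B cells. They are CA9, CA12, ADM, VEGFA, ANGPTL4, BNIP3, BNIP3L, NDRG1, DDIT4 and ANKRD37. They were taken by symbol, and all 10 were found among the 25411 genes listed for each library. BEAS-2B is a human bronchial epithelial cell line that has been immortalised. RNA-Seq was available for 8 libraries, 2 biological replicates in each of 4 groups. Cells without treatment (UT) were the control. Cells under nickel exposure (Ni-E) were kept for 6 weeks in 100 µM NiCl2, which dissolves readily. Nickel-washed-out cells (Ni-W) had received the same exposure, after which a population grown from a single cell was expanded in nickel-free medium for more than 6 months. The cells labelled HCl3 carried the treatment text of Ni-W, with no statement of their time without nickel or of their relation to Ni-W. Since Ni-W and HCl3 were each labelled as expanded from isolated single cells, a difference between clones and an effect of the treatment cannot be told apart in either group. The labels also placed both Ni-E libraries in experiment 2 and the HCl3 libraries in experiments 3 and 4, so experiment and group cannot be told apart.

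In cells with enough oxygen, prolyl hydroxylases (the EGLN enzymes) mark the HIF alpha subunits for destruction through VHL. When oxygen falls, or when a metal such as nickel disturbs these iron-dependent enzymes, HIF alpha is stabilised, pairs with ARNT and binds the core motif ACGTG or GCGTG near its target genes. The glycolytic targets are the best known, and the 10 genes here cover the other arms of the response. CA9 and CA12 are carbonic anhydrases of the cell surface that regulate pH. ADM, VEGFA and ANGPTL4 encode secreted factors that act on vessels and lipid metabolism. BNIP3 and BNIP3L are mitochondrial receptors for mitophagy, DDIT4 restrains mTORC1, and NDRG1 is a stress-responsive gene with roles in differentiation and metastasis. ANKRD37 encodes an ankyrin repeat protein.

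Because the 10 genes are read as targets of 1 transcription factor family, their promoters are shown here for CA9 and ADM, whose levels moved in opposite directions against UT in Ni-W and HCl3, and for those with the densest motif matches (BNIP3, DDIT4 and ANKRD37). RefSeq promoters (GRCh38.p14) ran from 250 bases before to 50 bases after the start of the gene. They were read for 7 of the 10 genes: CA9, CA12, ADM, ANGPTL4, BNIP3, DDIT4 and ANKRD37. Promoters of VEGFA, BNIP3L and NDRG1 were not read, so the matches below do not cover them. The letters ACGTG and GCGTG were searched on both strands, so that they also appear as CACGT and CACGC, and the palindrome CACGTG counts as overlapping matches on both strands. Each sequence is a 120-base part of the promoter, is read 5′ to 3′ on the strand of the gene, and has the matches in capitals. The parts do not all begin at the same distance from the start. For DDIT4, the matches at -219 and 26 from the start lie outside the part shown.
CA9, chr9:35673808-35673927, + strand: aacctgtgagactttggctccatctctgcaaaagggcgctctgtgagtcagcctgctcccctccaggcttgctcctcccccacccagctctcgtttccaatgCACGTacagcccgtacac
ADM, chr11:10304953-10305072, + strand: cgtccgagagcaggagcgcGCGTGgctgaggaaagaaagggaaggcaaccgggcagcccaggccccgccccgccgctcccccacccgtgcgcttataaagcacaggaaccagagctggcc
BNIP3, chr10:131981968-131982087, - strand: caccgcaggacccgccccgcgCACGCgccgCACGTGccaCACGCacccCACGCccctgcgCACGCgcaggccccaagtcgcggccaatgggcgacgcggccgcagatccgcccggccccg
DDIT4, chr10:72273769-72273888, + strand: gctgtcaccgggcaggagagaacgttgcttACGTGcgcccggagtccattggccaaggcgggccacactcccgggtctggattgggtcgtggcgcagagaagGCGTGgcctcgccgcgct
ANKRD37, chr4:185396649-185396768, + strand: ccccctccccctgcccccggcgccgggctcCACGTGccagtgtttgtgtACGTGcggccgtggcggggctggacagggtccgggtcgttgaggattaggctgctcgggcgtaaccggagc
All 7 promoters held at least 1 match, against 48.4% of 27305 promoters and 62.9% of the 10167 promoters whose gene had a mean count of 10 or more. CA9 held 1 match, a CACGT whose first base was at -18 from the start. ADM also held 1, a GCGTG at -101. BNIP3 held 6 matches, DDIT4 4 and ANKRD37 3, and in ANKRD37 all of them were of the ACGTG type. CA12 held 2, both of the GCGTG type, and ANGPTL4 1 of the ACGTG type. The ACGTG type alone was found in 21.6% of all promoters and in 26.6% of those of the expressed genes. A match is a description of the letters and not a measured binding site.

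Libraries held between 26383920 and 45692298 reads assigned to genes, and the biological coefficient of variation between replicates was 0.101 in UT, 0.0951 in Ni-E cells, 0.0696 in Ni-W cells and 0.0452 in HCl3. Levels are given as RPKM, reads scaled to gene length and library size, and each value spans every exon of the gene as listed. A gene was called upregulated or downregulated when DESeq2 on the read counts gave an adjusted P value under 0.05 and a change of at least 1.5-fold. Of 9 bronchial epithelial markers, KRT7, KRT8 and KRT18 carried nearly all of the signal, while KRT5 and TP63 were at or near 0 and CDH1 stayed below 0.1 RPKM as a group mean. The summed level of this list was 604 to 638 RPKM in UT, 582 to 795 in Ni-E, 954 to 979 in Ni-W and 942 to 1000 in HCl3. In Ni-W 3 and in HCl3 4 of these 9 genes were called higher than UT, with the largest changes for KRT19 (0 and 1 reads in UT, 59 and 27 in Ni-W, 41 and 49 in HCl3) and MUC1 (log2 fold changes of 1.86 and 1.97). The shares of all genes tested that were called higher were 10.9% in Ni-W and 11.1% in HCl3. Of 7 fibroblast markers, DCN was at 0 and PDGFRA near 0, and the summed level was 359 to 414 RPKM in UT, 189 to 354 in Ni-E, 243 to 269 in Ni-W and 462 to 485 in HCl3. It came mostly from COL1A1 (log2 fold change of -0.69 in Ni-W). The genes called among them were LUM (2.88) and COL1A2 (-2.69) as the largest of 3 in Ni-E, COL1A1 and POSTN (-1.48) in Ni-W, and COL1A2 (3.21) in HCl3. Of 7 endothelial and blood cell markers, PECAM1 and CD3E were at or near 0. Their sum was 1.07 to 1.84 RPKM in UT, 1.1 to 2.02 in Ni-E, 3 to 4.33 in Ni-W and 2.96 to 4.2 in HCl3, nearly all of it CD14 (log2 fold changes of 1.28 in Ni-W and 1.23 in HCl3), with VWF also called in Ni-W (2.01). The part of these shifts in the results that follow was not tested.

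In Ni-E cells 4 of the 10 genes were upregulated (VEGFA, ANGPTL4, DDIT4 and NDRG1) and 0 were downregulated, where 3.75% of the 14478 genes tested were called higher and 2.05% lower. In Ni-W cells 6 were upregulated (CA9, CA12, ANGPTL4, BNIP3, NDRG1 and DDIT4) and 1, ADM, was downregulated, against 10.9% and 4.83% of 15826 genes. In HCl3 cells all 10 were called, 9 upward and ADM downward, against 11.1% and 3.74% of 15766 genes. The median log2 fold change of the 10 genes against UT was 0.55 in Ni-E cells, 0.90 in Ni-W cells and 1.31 in HCl3, and that of all genes tested was 0.00, 0.01 and 0.01. These 3 comparisons share the UT libraries, so they are not independent of each other. In bulk RNA, fewer cells that express a gene and less RNA of that gene per cell cannot be told apart.

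**Figure D1:**
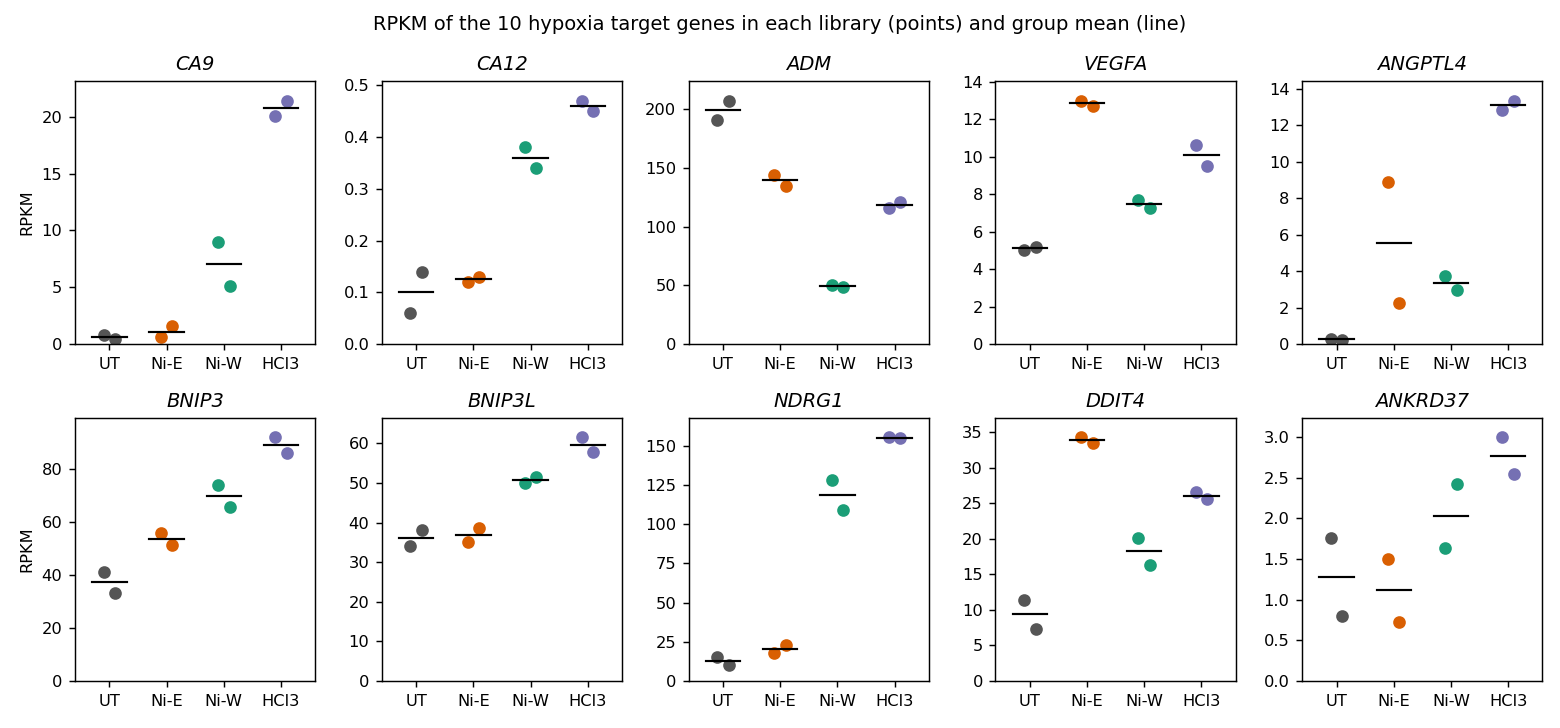
RPKM (vertical axis, linear, from 0) of each of the 10 genes in the 8 libraries, grouped as UT, Ni-E, Ni-W and HCl3. Points are libraries and lines are group means. CA9 and NDRG1 stepped up between Ni-E and Ni-W, VEGFA and DDIT4 were highest in Ni-E, and ADM was highest in UT.

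The 10 genes did not follow a single order across the groups. CA9, CA12, BNIP3 and NDRG1 had group means that ascended from UT through Ni-E and Ni-W to HCl3. VEGFA and DDIT4 ascended from UT through Ni-W and HCl3 to Ni-E, and ANGPTL4 from UT through Ni-W and Ni-E to HCl3. BNIP3L and ANKRD37 had their 2 lowest means in UT and Ni-E, and their highest in HCl3. ADM was the only one of the 10 with its highest mean in UT, and its lowest was in Ni-W.

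CA9, a carbonic anhydrase that is nearly silent in most oxygenated tissues, was low in UT and Ni-E and higher in Ni-W and HCl3. It lies at chr9:35673915-35681154 (hg19, + strand). The UT libraries gave 0.81 and 0.50 RPKM, those of Ni-E 0.62 and 1.58, those of Ni-W 8.95 and 5.12, and those of HCl3 20.06 and 21.42. The UT and Ni-E libraries overlapped, both Ni-W libraries were above them, and both HCl3 libraries were above Ni-W. The read counts behind these levels ran from 23 in a UT library to 1432 in an HCl3 library. Against UT, the log2 fold change was 0.68 ± 0.55 (SE) in Ni-E (adjusted P = 0.513), 3.37 ± 0.33 in Ni-W (7.42e-23) and 4.89 ± 0.23 in HCl3 (2.22e-101, DESeq2). The replicates of Ni-E differed 2.55-fold, and without Ni-E replicate 2 the Ni-E value was -0.13. The median log2 fold change of the 72 expressed genes within 5 Mb of CA9 was -0.67 in Ni-W and -0.31 in HCl3, opposite in sign to CA9 itself.

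CA12, the related surface carbonic anhydrase (chr15:63615730-63674075, - strand), was measured at a far lower level. Per library, its RPKM was 0.06 and 0.14 (UT), 0.12 and 0.13 (Ni-E), 0.38 and 0.34 (Ni-W), and 0.47 and 0.45 (HCl3). The UT and Ni-E libraries overlapped and every Ni-W and HCl3 library was above them. All 8 libraries together gave 334 reads, with 9 and 15 in UT, so counting error is large for this gene. CA12 was upregulated in Ni-W cells (log2 fold change 1.96 ± 0.61, adjusted P = 0.00677) and in HCl3 (2.31 ± 0.56, adjusted P = 0.000305), and its Ni-E value was 0.38 ± 0.85 (adjusted P = 0.855, DESeq2). The Ni-W call was lost without UT replicate 1 (1.42, adjusted P = 0.195) or without Ni-W replicate 1 (1.87, 0.301) or 2 (2.01, 0.19), and the HCl3 call without HCl3 replicate 1 (2.27, 0.125) or 2 (2.30, 0.116, DESeq2). Without UT replicate 2 the values were 2.68 in Ni-W and 3.02 in HCl3. Without UT replicate 1 the Ni-E value was -0.14. The 60 expressed genes around CA12 had a median of 0.35 on the log2 scale in Ni-W cells and 0.28 in HCl3.

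Of the 13 other carbonic anhydrases, most were at or near 0 in every group. CA11 (log2 fold change 1.22 ± 0.41, adjusted P = 0.0289) and CA13 (1.44 ± 0.35, adjusted P = 0.00111, DESeq2) were upregulated in Ni-E, where CA9 and CA12 were not called. CA14 was called higher in Ni-W (adjusted P = 0.0103, DESeq2), with 25 and 18 reads against 0 and 1 in UT, and 0 of the 13 were called in HCl3. Against UT, only 4 of the 13 were tested for each of Ni-E and Ni-W, with 5 for HCl3. Shares of all genes called higher were 3.75%, 10.9% and 11.1% in the same group order. Counts this small cannot show whether the list differs from all genes.

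ADM, which encodes the vasodilator peptide adrenomedullin, was below UT in all 3 treated groups, and was the only one of the 10 genes called lower than UT in any of them. It was the most abundant of the 10 in UT, in the 99.0 percentile of all listed genes (chr11:10326642-10328923, + strand). RPKM values were 190.66 and 207.49 (UT), 144.21 and 135.00 (Ni-E), 50.54 and 48.64 (Ni-W), and 116.30 and 120.76 (HCl3). No libraries of different groups overlapped, and the UT mean (199 ± 12, SD, n = 2) was 4.01-fold the Ni-W mean (49.6 ± 1.3). ADM was downregulated in Ni-W cells (log2 fold change -2.04 ± 0.10, adjusted P = 3.6e-83) and in HCl3 (-0.80 ± 0.09, adjusted P = 4.57e-16). In Ni-E its log2 fold change was -0.57 ± 0.11 (adjusted P = 1.63e-05, DESeq2), which passed the P value but not the 1.5-fold threshold. The Ni-E value passed both after GC and length trends were removed (-0.79, adjusted P = 2e-10), without UT replicate 1 (-0.63, 0.000266) and without Ni-E replicate 1 (-0.63, 0.00438). In Ni-W and HCl3 the downregulation was called in every alternative run, with log2 fold changes of -2.10 to -1.97 and -0.86 to -0.74. ADM carried most of the summed level of the 10 genes in UT: the sum was 301 and 303 RPKM with it and 110 and 95.8 without it. In HCl3 the sum was 499 and 492 RPKM with ADM and 382 and 371 without it.

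The receptor parts for the secreted factors were mostly low. For adrenomedullin these are CALCRL with a RAMP partner, and for VEGFA they are FLT1, KDR and the neuropilins. Of the 8 genes listed, 1 was downregulated in Ni-E (NRP1, log2 fold change -0.64 ± 0.18, adjusted P = 0.0049, DESeq2), 2 were upregulated in Ni-W and 7 in HCl3. Among all genes tested, 2.05% were called lower in Ni-E, and 10.9% and 11.1% higher in Ni-W and HCl3. FLT1 went from a mean of 0.025 RPKM in UT to 1.73 in Ni-W cells and 1.75 in HCl3 (log2 fold changes of 5.89 ± 0.48 and 5.76 ± 0.48, adjusted P = 1.32e-32 and 4.26e-31). CALCRL had 0 reads in both UT libraries and 20 and 7 in Ni-W cells, higher by at least 3.32-fold (adjusted P = 0.0124). KDR likewise had 0 reads in UT and 11 and 7 in HCl3, at least 2.39-fold higher (adjusted P = 0.0354). These bounds are set against 3 reads per library. RAMP1 and RAMP2 were upregulated in HCl3, by 1.91 and 2.42 on the log2 scale, and RAMP3 was at 0 throughout.

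VEGFA, the main growth factor for blood vessels (chr6:43739722-43754223, + strand), was highest in Ni-E. The UT libraries gave 5.02 and 5.21 RPKM, those of Ni-E 13.01 and 12.73, those of Ni-W 7.71 and 7.28, and those of HCl3 10.65 and 9.51. The 4 groups did not overlap. VEGFA was upregulated in Ni-E cells (log2 fold change 1.27 ± 0.14, adjusted P = 1.2e-16) and in HCl3 (0.95 ± 0.13, adjusted P = 1.99e-11, DESeq2). In Ni-W the difference was 1.42-fold (0.51 ± 0.14, adjusted P = 0.00227, DESeq2), which is below the fold threshold. Among its family relatives, PGF was upregulated in all 3 treated groups (2.23, 1.17 and 1.80 on the log2 scale in Ni-E, Ni-W and HCl3). VEGFC was downregulated in Ni-E (-0.76).

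ANGPTL4, a secreted inhibitor of lipoprotein lipase (chr19:8429011-8439259, + strand), had the widest range of the 10 genes, 46.9-fold between the lowest and highest group means. Per library, its RPKM was 0.31 and 0.25 (UT), 8.88 and 2.26 (Ni-E), 3.73 and 2.97 (Ni-W), and 12.87 and 13.37 (HCl3). Every treated library was above both UT libraries, which held 24 and 9 reads. The Ni-E replicates differed 3.93-fold and enclosed the Ni-W values, while HCl3 was above all other libraries. ANGPTL4 was upregulated in Ni-E cells (log2 fold change 4.55 ± 1.03, adjusted P = 0.00038), in Ni-W (3.78 ± 0.39, adjusted P = 2.46e-20) and in HCl3 (5.72 ± 0.30, adjusted P = 3.83e-78, DESeq2). Without UT replicate 2 the Ni-E call was lost (4.18, adjusted P = 0.0904, DESeq2), and the Ni-E value was 3.20 without Ni-E replicate 1 and 5.19 without Ni-E replicate 2. Its relative ANGPTL2 was upregulated in Ni-W (1.16) and in HCl3 (2.01 ± 0.19, adjusted P = 9.16e-25), from a mean of 1.1 RPKM in UT to 4.61 in HCl3.

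BNIP3, a mitophagy receptor of the outer mitochondrial membrane (chr10:133781204-133795435, - strand), was already abundant in UT. RPKM values were 41.22 and 33.25 (UT), 55.59 and 51.38 (Ni-E), 73.97 and 65.56 (Ni-W), and 91.88 and 85.93 (HCl3). The 4 groups did not overlap and stepped up in that order. BNIP3 was upregulated in Ni-W cells (log2 fold change 0.87 ± 0.13, adjusted P = 6.03e-10) and in HCl3 (1.2 ± 0.12, adjusted P = 1.57e-22, DESeq2). The Ni-E value was 0.47 ± 0.14 (adjusted P = 0.0105, DESeq2), below the fold threshold, and was called without UT replicate 1 (0.63, 0.00478).

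BNIP3L, also known as NIX, is the close relative of BNIP3. The UT libraries gave 34.13 and 38.02 RPKM, those of Ni-E 34.99 and 38.56, those of Ni-W 50.09 and 51.48, and those of HCl3 61.56 and 57.80. The UT and Ni-E libraries overlapped, and Ni-W and HCl3 were above them without overlap. BNIP3L was upregulated in HCl3 (log2 fold change 0.67 ± 0.10, adjusted P = 2.98e-10, DESeq2). In Ni-W the difference was 1.37-fold (0.46 ± 0.11, adjusted P = 0.000145), and in Ni-E it was -0.03 ± 0.12 (adjusted P = 0.924, DESeq2). Of 12 other mitophagy genes, 0 were called in Ni-E cells, 2 in Ni-W cells and 1 in HCl3, all upward, which is near the share of all genes called higher (10.9% in Ni-W and 11.1% in HCl3). Their median log2 fold change was -0.05 in Ni-W and -0.06 in HCl3, and in Ni-W 3 passed the P value upward and 3 downward. The genes called were MAP1LC3A (2.68 ± 0.25 in Ni-W, adjusted P = 2.47e-24, and 3.10 ± 0.22 in HCl3, 9.67e-41) and GABARAPL1 (0.70 ± 0.10 in Ni-W, 6.69e-10, DESeq2), which encode autophagosome proteins. PINK1, with means of 53.1 RPKM in UT and 42.1 in Ni-W, was not called against UT in any group.

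NDRG1 had the largest absolute step of the genes that went up, and most of it lay between Ni-E and Ni-W. Per library, its RPKM was 15.35 and 10.25 (UT), 17.88 and 22.80 (Ni-E), 128.45 and 108.90 (Ni-W), and 155.44 and 154.72 (HCl3). The 4 groups did not overlap, and Ni-W and HCl3 stood well apart from UT and Ni-E. NDRG1 was upregulated in Ni-W cells (log2 fold change 3.20 ± 0.33, adjusted P = 1.09e-20) and in HCl3 (3.57 ± 0.31, adjusted P = 8.91e-29, DESeq2). In Ni-E it was called at 0.63 ± 0.18 (adjusted P = 0.00873, DESeq2), and 5 of 12 alternatives kept that call. It was lost, among others, with all 8 libraries in the fit (adjusted P = 0.053), after GC and length trends were removed (0.58, 0.299), and without UT replicate 2 (0.36, 0.407), Ni-E replicate 1 (0.79, 0.632) or Ni-E replicate 2 (0.46, 0.402, DESeq2). Of its relatives, NDRG2 was upregulated in Ni-W (1.86 ± 0.33, adjusted P = 4.43e-07) and HCl3 (1.37), and NDRG3 and NDRG4 were not called.

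DDIT4, also called REDD1, a stress-induced inhibitor of mTORC1 (chr10:74033677-74035797, + strand), was highest in Ni-E, as VEGFA was. RPKM values were 11.38 and 7.34 (UT), 34.32 and 33.52 (Ni-E), 20.19 and 16.27 (Ni-W), and 26.55 and 25.64 (HCl3). The groups did not overlap. DDIT4 was upregulated in Ni-E cells (log2 fold change 1.80 ± 0.18, adjusted P = 1.05e-20), in Ni-W (0.92 ± 0.19, adjusted P = 1.62e-05) and in HCl3 (1.42 ± 0.17, adjusted P = 2.14e-15, DESeq2). The Ni-W call was lost without Ni-W replicate 1 (0.77, adjusted P = 0.0548, DESeq2).

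DDIT4 is also induced through ATF4 in the integrated stress response, the cell's answer to amino acid shortage and misfolded protein. A list of 11 other genes labelled as targets of that response, ATF4 itself among them, was read beside DDIT4. In Ni-E 7 of the 11 were upregulated and 0 downregulated, where 3.75% of all genes tested were called higher and 2.05% lower. In Ni-W 0 were upregulated and 6 downregulated, against 10.9% and 4.83%. In HCl3 the counts were 0 and 5, against 11.1% and 3.74%. On the log2 scale, DDIT3 (-0.22) and ATF3 (0.23) were not called in Ni-E, and PHGDH (0.25) and CEBPB (0.43) had positive values in Ni-W. CHAC1, which degrades glutathione, changed by 1.54 ± 0.15 in Ni-E cells, -1.30 ± 0.21 in Ni-W cells and -1.20 ± 0.20 in HCl3 on the log2 scale (adjusted P = 2.72e-20, 7.34e-09 and 2.33e-08, DESeq2). ASNS, the asparagine synthetase, had 1.52 ± 0.13, -1.26 ± 0.12 and -1.51 ± 0.11 (adjusted P = 3.18e-26, 1.11e-24 and 6.16e-42). ADM2, a relative of ADM, had the same signs as these genes (1.46 in Ni-E cells, -0.80 in Ni-W cells and -0.66 in HCl3, all called). In Ni-W and HCl3, DDIT4 was above UT while the called genes of this list were below UT. What raised DDIT4 was not tested in any group. DDIT4L, its relative, was upregulated in Ni-W (3.42 ± 0.98, adjusted P = 0.00262) from 0.03 RPKM.

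ANKRD37 was the least certain of the 10 genes. It lies at chr4:186317840-186321390 (+ strand) and overlaps UFSP2 on the opposite strand, and whether strand was used in counting was not stated, so reads of UFSP2 may be included. The UT libraries gave 1.76 and 0.80 RPKM, those of Ni-E 1.5 and 0.73, those of Ni-W 1.64 and 2.43, and those of HCl3 3.00 and 2.55. The UT libraries overlapped those of Ni-E and of Ni-W, both Ni-W libraries were above both Ni-E libraries, and both HCl3 libraries were above all others. ANKRD37 was called upregulated in HCl3 (log2 fold change 1.04 ± 0.42, adjusted P = 0.0457, DESeq2). Of 12 alternatives, 6 kept that call. It was lost, among others, with all 8 libraries in the fit (adjusted P = 0.0513) and without UT replicate 2 (0.60, 0.406), HCl3 replicate 1 (0.94, 0.506) or HCl3 replicate 2 (1.16, 0.351, DESeq2), and the value was 1.73 without UT replicate 1. Its values were 0.62 ± 0.48 in Ni-W (adjusted P = 0.358, or 1.31 without UT replicate 1 and 0.18 without UT replicate 2) and -0.29 ± 0.59 in Ni-E (adjusted P = 0.838, DESeq2).

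**Figure D2:**
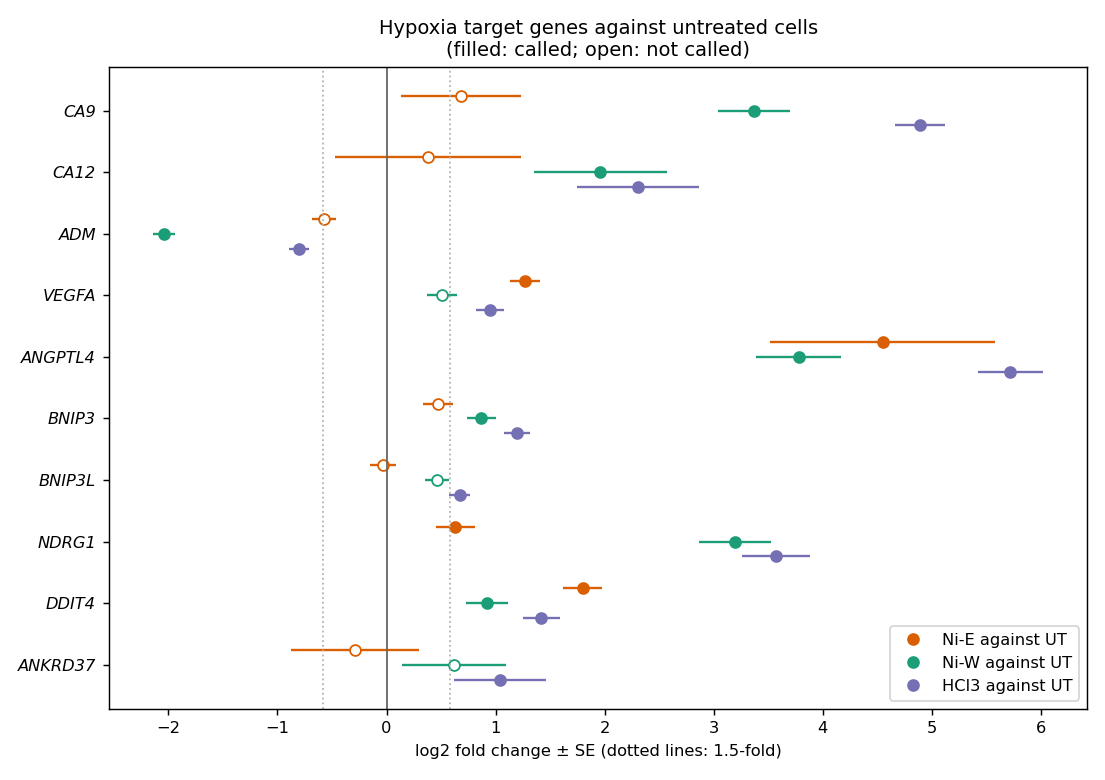
Log2 fold change against UT (horizontal axis, with SE bars) of each of the 10 genes in Ni-E, Ni-W and HCl3, from DESeq2 fits of 4 libraries each. Filled points passed both thresholds. ADM lies left of 0 in all 3 comparisons, and in HCl3 the other 9 genes are filled and lie to its right.

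The treated groups were also compared with each other directly, which asks whether a gene differed between cells still in nickel and cells grown on without it. Between Ni-W and Ni-E, 3 genes were higher in Ni-W (CA9, CA12 and NDRG1) and 3 lower (ADM, VEGFA and DDIT4), where 11.7% of 15989 genes were called higher and 8.81% lower. NDRG1 was higher by 2.55 ± 0.12 on the log2 scale (adjusted P = 7.59e-99) and CA9 by 2.69 ± 0.72 (adjusted P = 0.000792, DESeq2), or 3.49 without Ni-E replicate 2. ADM had a log2 fold change of -1.49 ± 0.10 (adjusted P = 4.71e-50), DDIT4 of -0.89 ± 0.13 (8.51e-11) and VEGFA of -0.77 ± 0.12 (5.48e-09, DESeq2). The difference of CA12 (1.54 ± 0.56, adjusted P = 0.0167) was lost when any of the 4 libraries was left out, with adjusted P values of 0.108 to 0.328 and log2 fold changes of 1.46 to 1.62 (DESeq2). BNIP3 (0.39 ± 0.11) and BNIP3L (0.47 ± 0.09) passed the P value but not the fold threshold (adjusted P = 0.00144 and 3.29e-06, DESeq2). ANGPTL4 depended on which Ni-E library was kept. Its log2 fold change was -0.75 ± 0.93 (adjusted P = 0.577), 0.59 without Ni-E replicate 1 (0.215) and -1.44 without Ni-E replicate 2 (2.15e-06, DESeq2).

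Between HCl3 and Ni-E, 6 genes were higher in HCl3 and 0 lower, against 10.4% and 6.78% of 15953 genes. They were CA9 (log2 fold change 4.23 ± 0.61), CA12 (1.88 ± 0.51), BNIP3 (0.72 ± 0.09), BNIP3L (0.69 ± 0.08), NDRG1 (2.92 ± 0.10) and ANKRD37 (1.33 ± 0.44). The call of CA12 was lost without HCl3 replicate 1 (1.87, adjusted P = 0.147) or 2 (1.91, 0.128), and that of ANKRD37 without Ni-E replicate 2 (0.87, 0.187), HCl3 replicate 1 (1.22, 0.306) or HCl3 replicate 2 (1.44, 0.171, DESeq2). The value of CA9 was 5.03 without Ni-E replicate 2, and that of ANKRD37 1.99 without Ni-E replicate 1. ADM, VEGFA and DDIT4 had values of -0.25, -0.34 and -0.39, which passed the P value but not the fold threshold. ANGPTL4 had 1.21 ± 0.91 (adjusted P = 0.321, DESeq2), and was called with the edgeR quasi-likelihood test (1.21, adjusted P = 0.0437) and without Ni-E replicate 1 (2.54, 1.05e-32), while without Ni-E replicate 2 the value was 0.52 (adjusted P = 0.00679, DESeq2), below the fold threshold.

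Between HCl3 and Ni-W, which carry the same treatment text, 3 genes were higher in HCl3 and 0 lower, against 3.1% and 1.66% of 14956 genes. ADM was higher by 1.24 ± 0.08 on the log2 scale (adjusted P = 1.18e-54), ANGPTL4 by 1.95 ± 0.15 (1.02e-35) and CA9 by 1.55 ± 0.39 (0.000967, DESeq2). The CA9 call was lost without HCl3 replicate 1 (1.60, adjusted P = 0.177) or 2 (1.5, 0.288), and the ANGPTL4 call with all 8 libraries in the fit (1.96, 0.0556, DESeq2). The other 7 genes also had positive values, from 0.22 for BNIP3L to 0.50 for DDIT4, and were not called. DDIT4 was called without Ni-W replicate 1 (0.66, adjusted P = 3.78e-05, DESeq2). ADM had a higher mean RPKM in HCl3 than in Ni-W, like the other 9 genes, although it was below UT in both.

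**Figure D3:**
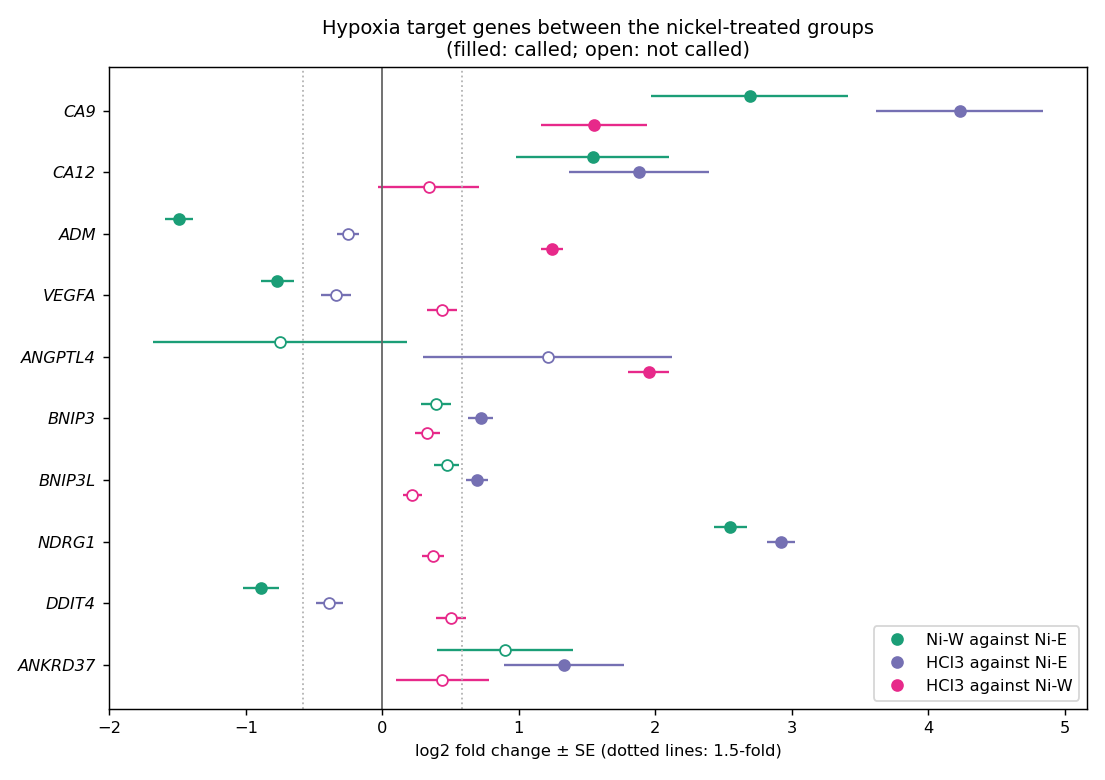
Log2 fold change (horizontal axis, with SE bars) of each of the 10 genes between the treated groups, from DESeq2 fits of 4 libraries each. Filled points passed both thresholds. CA9 and NDRG1 lie far to the right for Ni-W and HCl3 against Ni-E, VEGFA and DDIT4 lie left of 0 in both, and all points of HCl3 against Ni-W lie right of 0.

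Other genes of the hypoxia response were read from lists. Of 30 further non-glycolytic targets, 3 were upregulated and 2 downregulated in Ni-E cells, 10 and 0 in Ni-W cells, and 17 and 0 in HCl3. Shares of all genes tested, in the same group order, were 3.75%, 10.9% and 11.1% called higher, with 2.05%, 4.83% and 3.74% called lower. The median log2 fold change of the 29 tested was 0.21, 0.46 and 0.75, beside 0.00, 0.01 and 0.01 for all genes tested. STC1, which encodes the secreted glycoprotein stanniocalcin 1, was upregulated by a log2 value of 3.93 ± 0.30 in Ni-W cells (adjusted P = 4.1e-36) and 3.87 ± 0.28 in HCl3 (2.57e-40), and its Ni-E value was 0.41. CXCR4, a chemokine receptor, had 0 reads in both UT libraries. Its level was higher by at least 9.01-fold in Ni-E cells (adjusted P = 0.000463), 3.37-fold in Ni-W (0.0114) and 11.4-fold in HCl3 (2.11e-05, DESeq2). IGFBP3, a binding protein for insulin-like growth factors, was downregulated in Ni-E (-1.59 ± 0.12, adjusted P = 2.15e-38), from 188 ± 15 to 64.9 ± 5.3 RPKM (SD, n = 2), and upregulated in Ni-W (1.41) and HCl3 (0.94). IGFBP3 was thus opposite in sign to VEGFA and DDIT4 in Ni-E.

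Of 20 glycolytic targets, 2 were upregulated in Ni-E cells, 6 in Ni-W cells and 11 in HCl3, and 0 were downregulated. Of all genes, 3.75%, 10.9% and 11.1% were called higher. The median log2 fold change of these 20 targets was 0.16, 0.28 and 0.63, below that of the 10 genes in each group. This difference between lists was not tested, and the lists were chosen with earlier results of these data known. ALDOC, an aldolase, was upregulated in all 3 groups (1.16 ± 0.32, 1.65 ± 0.29 and 2.92 ± 0.21, adjusted P = 0.00492, 2.11e-07 and 7.58e-42, DESeq2). SLC2A3, a glucose carrier, was upregulated in Ni-E (3.21 ± 0.60, adjusted P = 5.45e-06) and HCl3 (4.28 ± 0.46, 1.08e-18), with a Ni-W value of -0.46. PDK1, which holds pyruvate back from the mitochondria, was upregulated by 1.26 ± 0.15 in Ni-W (adjusted P = 2.95e-15, DESeq2).

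Of 10 components of the HIF pathway itself, 9 were tested, and EGLN1 and EGLN3 are also among the 30 targets. In Ni-E cells 0 were upregulated and 1 downregulated, where 3.75% of all genes tested were called higher and 2.05% lower. The counts were 3 and 0 in Ni-W cells, against 10.9% and 4.83%, and 5 and 0 in HCl3, against 11.1% and 3.74%. HIF1A, the oxygen-regulated subunit, had means of 26.6 ± 1.8 RPKM in UT, 24.0 ± 0.32 in Ni-E cells, 51.1 ± 4.0 in Ni-W cells and 77.9 ± 3.5 in HCl3 (SD, n = 2). Its mRNA was upregulated in Ni-W (0.91 ± 0.11, adjusted P = 1.36e-14) and HCl3 (1.49 ± 0.10, adjusted P = 3.46e-51, DESeq2), with a value of -0.20 in Ni-E. EPAS1, which encodes HIF-2 alpha, was upregulated in Ni-W (0.67) and HCl3 (1.10). ARNT2 was downregulated in Ni-E (-0.84 ± 0.22, adjusted P = 0.00286) and upregulated in Ni-W (1.31 ± 0.15, 5.71e-17) and HCl3 (1.12). EGLN3, a prolyl hydroxylase that is itself a HIF target, was upregulated in HCl3 (2.61 ± 0.26, adjusted P = 3.19e-21, DESeq2). RNA levels do not report HIF protein, whose control is largely by degradation.

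**Figure D4:**
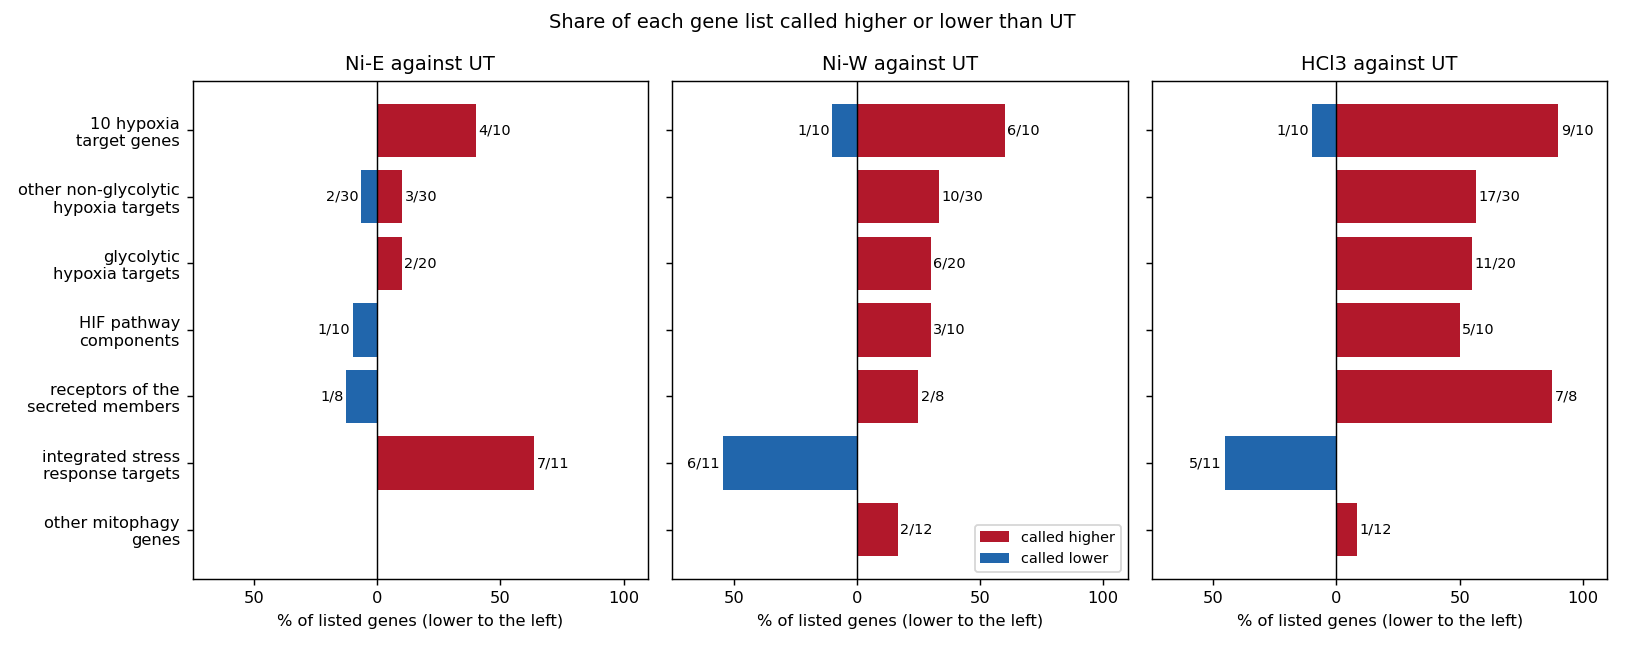
Share of the genes of each list (horizontal axis, percent of the genes listed) called higher (to the right) or lower (to the left) than UT in Ni-E, Ni-W and HCl3, with counts beside the bars. The hypoxia lists have their most calls in HCl3, and the integrated stress response targets change side between Ni-E (7 higher) and Ni-W (6 lower).

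The genes whose profile over the 8 libraries was most like that of CA9 were GLI3, TXNIP and FGF11, with Pearson r of 0.9973, 0.9959 and 0.9946 on log2(normalised count + 1), among 12014 genes. Of the other hypoxia targets, NDRG1 was closest to CA9 (r = 0.972, rank 69), followed by BNIP3L (0.953) and BNIP3 (0.927), and VEGFA (0.263) and DDIT4 (0.369) were far from it. The genes most like ADM were CLMP, ESYT1 and KIAA1217 (r = 0.9918, 0.9914 and 0.9912). All of the 8 other targets that could be ranked had a negative r with ADM, from -0.128 for VEGFA to -0.742 for NDRG1. A negative r with ADM was common: from the highest r downward, VEGFA ranked 6911 and NDRG1 10667 among the 12014 genes. CA12 was below the minimum mean normalised count of 50 and was not ranked. These values describe 8 libraries in 4 groups, and the libraries of a group share their treatment.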

How the data were processed

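RNA-Seq libraries (TruSeq RNA kit) of 8 BEAS-2B samples were analysed. The authors aligned reads to hg19 by STAR 2.4, dropped those that aligned to several places, and deposited read counts per RefSeq gene from BioWardrobe. They also deposited RPKM values, rounded to 2 decimals and used here as levels only, with no test. Groups came from the labels, and replicate 2 is the library with the repeat suffix. The methods call the replicates biological.

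Counts of each pair of groups were fitted in R 4.3.3 with DESeq2 1.42.0, the tool and thresholds of the study's methods (4 libraries a fit, no covariates, two-sided Wald test, independent filtering at 0.1, Benjamini-Hochberg adjustment over all genes tested). With 2 replicates a group, P values rest on a spread shared across genes. Alternatives were the edgeR 4.0.16 quasi-likelihood test, TMM factors, a mean count of at least 10, all 8 libraries in one fit, the repeat suffix as a replicate block, GC and length trends removed with and without that block, each library left out and, added after the data were seen, crossed blocks. Library totals of 26383920 to 45692298 reads set the precision of low values. A fold against UT libraries at 0 reads is a lower bound against 3 reads per library, which covers counting error only.

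The 10 genes and all lists were chosen with earlier results of these data known. Named were all 10 genes, the 2 largest called changes of each other list against UT, and the 3 genes most like CA9 and ADM (mean normalised count of at least 50). Other genes named from the lists, such as EPAS1, RAMP1, RAMP2, VEGFC and PINK1, were chosen after their values were seen. Scripts were tested on simulated data. Promoter coordinates are GRCh38.p14 and gene coordinates hg19. Figures were drawn with matplotlib 3.10.9.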

Additional observations from a re-analysis of the deposited data

Results flagged for a closer look

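The effects of treatment against UT differed between treated groups for several of the 10 genes, by the DESeq2 test of 1 treated group directly against the other, in which UT cancels. Between Ni-W and Ni-E the log2 difference was 2.69 for CA9, 2.55 for NDRG1, 1.54 for CA12, -1.49 for ADM, -0.89 for DDIT4 and -0.77 for VEGFA. Between HCl3 and Ni-E it was 4.23 for CA9, 2.92 for NDRG1, 1.88 for CA12, 1.33 for ANKRD37, 0.72 for BNIP3 and 0.69 for BNIP3L. HCl3 and Ni-W, which share their treatment text, differed by 1.95 for ANGPTL4, 1.55 for CA9 and 1.24 for ADM. With 2 libraries a group, no group was large enough to be searched for single outlying libraries.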

How the results depend on the processing

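Of 690 log2 fold changes of the 10 genes recomputed under the alternatives, 637 kept their direction and their side of the thresholds, 35 lost the call, 9 gained it and 9 changed sign. The changes of sign were BNIP3L in Ni-E against UT (0.11 with GC and length trends removed, 0.10 with these and the replicate block, 0.05 without UT replicate 2, 0.02 without Ni-E replicate 1), CA12 (-0.14) and ANKRD37 (0.39) in that comparison without UT replicate 1, CA9 (-0.13) and ANKRD37 (0.16) without Ni-E replicate 2, and ANGPTL4 in Ni-W against Ni-E (0.59) without Ni-E replicate 1. None of these 9 values was called, and their cause was not tested. Over the single libraries left out, the same results ran from -0.13 to 1.19 (CA9), -0.14 to 1.12 (CA12), -0.11 to 0.05 (BNIP3L), -0.94 to 0.39 (ANKRD37) and -1.44 to 0.59 (ANGPTL4).

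With a library left out, the number of the 10 genes called was 2 to 6 in Ni-E (2 without UT replicate 2, against 4), 5 to 7 in Ni-W and 8 to 10 in HCl3 against UT, 5 to 6 in Ni-W and 4 to 7 in HCl3 against Ni-E, and 2 to 4 in HCl3 against Ni-W. All genes called then numbered 356 to 620 in Ni-E against UT (840 with all libraries; 440 without UT replicate 2, 356 and 496 without Ni-E replicate 1 and 2), 1516 to 2190 in Ni-W (2484; lowest without Ni-W replicate 1), 1339 to 2109 in HCl3 (2333; 1412 and 1339 without HCl3 replicate 1 and 2), 2276 to 3055 in Ni-W against Ni-E (3276), 1757 to 2742 in HCl3 against Ni-E (2734; lowest without HCl3 replicate 1) and 327 to 530 in HCl3 against Ni-W (713; 458 without Ni-W replicate 1, 391 and 327 without HCl3 replicate 1 and 2). Such fits have fewer libraries, and the lone library of a group is assumed to vary like the other group.

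Same-suffix replicates deviated together with r of -0.106, 0.2 and -0.16 against UT in Ni-E, Ni-W and HCl3, -0.107 and -0.00805 in Ni-W and HCl3 against Ni-E, and -0.0458 in HCl3 against Ni-W, so the suffix was not taken to pair them. With the replicate block, all genes called numbered 491 in Ni-E against UT and 455 in HCl3 against Ni-W, and with GC and length trends removed as well 401 and 454. The block left 3, 7 and 9 of the 10 genes called against UT, 5 and 6 against Ni-E and 3 in HCl3 against Ni-W. The calls it removed were NDRG1 in Ni-E against UT (0.66, adjusted P = 0.0513), ANKRD37 in HCl3 against UT (1.14, 0.154) and CA12 in Ni-W against Ni-E (1.54, 0.119, DESeq2). Crossed blocks, chosen after seeing the data, left 4 in Ni-E and 9 in HCl3 against UT and 5 in Ni-W against Ni-E, of 632, 1880 and 2851 genes called.

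Depth limits CA12 (334 reads in all libraries) and ANKRD37 (544 reads) most. With 2 libraries a group and both Ni-W and HCl3 labelled as expanded from isolated single cells, clone, experiment and treatment cannot be told apart.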
